A study of Rattus norvegicus with 43 samples.

Results

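Cyp26b1 encodes a cytochrome P450 of the endoplasmic reticulum that hydroxylates retinoic acid. Its transcript was followed in the liver, the lung and the mammary gland. The rats were female and of the outbred Sprague-Dawley strain. The members were chosen as the probe sets whose symbol on the array platform is Cyp26b1, and 1 of the 8740 non-control probe sets met that rule (rc_AA892066_at, designed from an expressed sequence tag). Rats were 100 days old when exposure began, and it lasted 7 days. Targretin, the drug bexarotene, binds the retinoid X receptors and was dosed by gavage, at 60 mg per kg of body weight. 9cRA (9-cis retinoic acid, which binds both the retinoic acid receptors and the retinoid X receptors) was mixed into the diet at 100 mg per kg, and 4HPR (4-hydroxyphenylretinamide, a synthetic retinamide also called fenretinide) at 782 mg per kg. Untreated rats ate the diet alone, and the labels name no gavage control for Targretin. The 43 arrays fell into 12 groups of organ and agent, with 4 arrays in each of 7 groups and 3 arrays in each of 5: untreated lung, 4HPR mammary gland and the Targretin group of every organ. Arrays carry the replicate numbers of the labels. The labels do not say that the arrays of a group came from separate rats, so every p-value measures only the spread between arrays. The question was how each agent alters transcripts in each organ.

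Retinoic acid acts in the nucleus by binding the retinoic acid receptors, which sit on DNA as pairs with a retinoid X receptor. The enzymes of the Cyp26 family oxidise retinoic acid to polar products and so end its signal. Retinoic acid raises transcription of these enzymes in many tissues, a feedback that limits its own level. Cyp26a1 is the family member best known in liver, and Cyp26b1 is known from the embryo and from several adult organs. Cyp26a1 and Cyp26c1 were not measured here, so Cyp26b1 is the family's sole representative.

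The receptor pairs bind repeats of a hexamer, and the sequence before the start of Cyp26b1 is shown because it is the stretch of this gene that can be set beside that motif. It covers the 250 bases before the annotated start, chr4:118616177-118616426 on the minus strand of GRCr8, from RefSeq. The Cyp26a1 window is shown for comparison, with 20 bases on each side of its repeat, at chr1:244883710-244883766 on the plus strand of the same build. Capitals mark the repeat, which reads as hexamers on the opposite strand.
Cyp26b1: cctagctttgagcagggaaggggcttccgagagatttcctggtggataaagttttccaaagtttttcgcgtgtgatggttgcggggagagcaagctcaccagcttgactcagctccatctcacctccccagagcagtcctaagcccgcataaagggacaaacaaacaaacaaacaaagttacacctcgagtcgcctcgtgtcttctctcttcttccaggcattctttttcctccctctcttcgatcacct
Cyp26a1: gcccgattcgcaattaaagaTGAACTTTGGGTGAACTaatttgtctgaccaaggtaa

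Each hexamer was searched on both strands of 33469 rat promoters, 250 bases long, and a promoter could hold more than 1 of them. AGGTCA occurred in 14.1% of the promoters. Its variant AGTTCA occurred in 12.2%. The variant GGGTCA occurred in 11.9%. The variant GGTTCA occurred in 9.77%, and any of these hexamers occurred in 39.1%. None of them occurred in the Cyp26b1 window. A direct repeat of these hexamers with a spacer of 5 bases, as in the Cyp26a1 window, occurred in 0.326% of the promoters. Direct repeats with a spacer of 1 base occurred in 0.194%, and those with a spacer of 2 bases in 0.137%. The absence of a match says only that these letters are not in the Cyp26b1 window.

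Signals are linear MAS5 values that the authors scaled to a common mean. Median signals per array ranged from 266.85 to 390.55 for liver, from 470.5 to 636.6 for lung and from 348.35 to 442.9 for mammary gland. The organ labels were checked against marker genes. The summed signal of 8 hepatocyte markers was 376870 to 656375 on liver arrays, that of 7 lung epithelium markers was 224521 to 390231 on lung arrays, and that of 11 mammary epithelium markers was 111538 to 529080 on mammary gland arrays. Hepatocyte markers reached 117152 on lung arrays and 105184 on mammary gland arrays, lung epithelium markers reached 10915 on liver arrays and 20901 on mammary gland arrays, and no marker value was 0. In these bulk samples, fewer cells of a type and less RNA per cell cannot be told apart.

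Untreated arrays that carried a high Cyp26b1 signal also stood apart in other genes. Untreated lung 2 had 14890 for Alb, the hepatocyte gene for albumin, against 114.6 and 152.4 in untreated lungs 3 and 4. Its log2 profile correlated at 0.954 to 0.969 with the 4HPR lungs and at 0.937 and 0.944 with the other untreated lungs. In mammary gland, untreated arrays 1 and 4 had 15487 and 15387 for the summed lung epithelium markers, against 5589 and 6039 in untreated arrays 2 and 3. These arrays correlated at 0.955 to 0.967 with the 4HPR mammary glands and at 0.937 to 0.955 with the other untreated glands. That trait was not theirs alone, since untreated gland 3 correlated at 0.950 to 0.963 with the 4HPR glands and at 0.948 to 0.963 with untreated ones. The labels of all 3 arrays were kept, and Cyp26b1's differences from diet in lung and mammary gland are given with and without them. That choice was made after the values were seen. By construction it lowers both the untreated level of Cyp26b1 and its spread among untreated arrays.

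The level of Cyp26b1 was highest in lung after Targretin and lowest in untreated liver. In order of the mean log2 level, the groups were Targretin lung at 12.65, 4HPR lung at 12.25, untreated lung at 9.67, Targretin mammary gland at 9.45, 9cRA lung at 9.37, 4HPR liver at 9.25, 4HPR mammary gland at 9.13, Targretin liver at 9.10, untreated mammary gland at 7.82, 9cRA liver at 7.66, 9cRA mammary gland at 7.62 and untreated liver at 6.77. The ranges of all 11 neighbouring pairs in that order overlapped, which is not a test of a difference. The ranges of 4HPR lung and untreated lung did so through untreated lung 2 alone. Within each organ, Targretin and 4HPR held the highest mean levels.

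**Figure D1:**
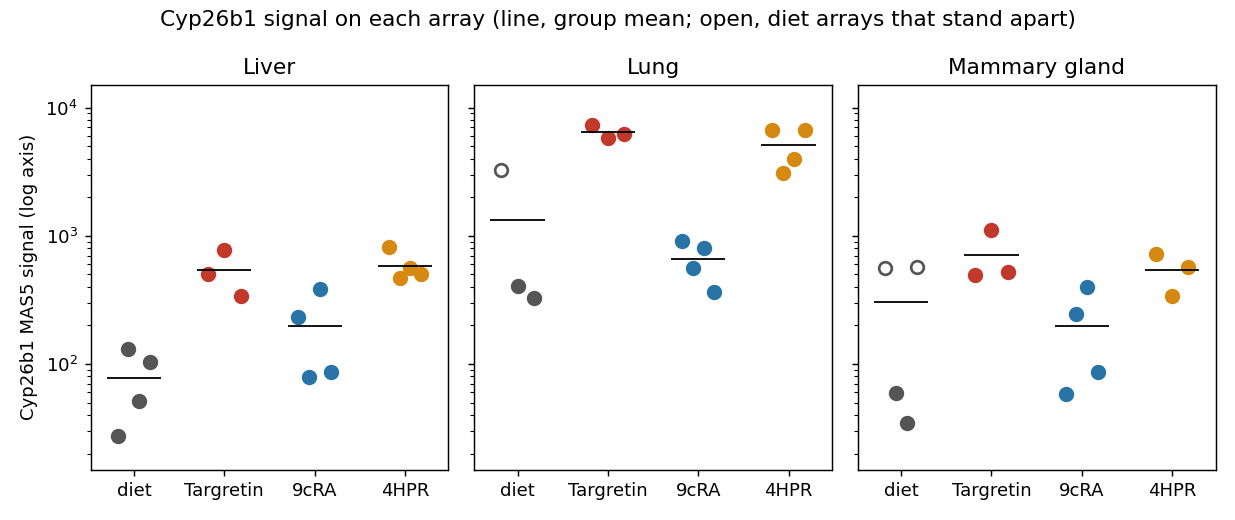
Cyp26b1 signal on each array (MAS5 units, log axis) by agent in liver, lung and mammary gland, with points for arrays, open for the 3 untreated arrays that stand apart, and lines for group means. Targretin and 4HPR arrays lie above every untreated array in liver, and in lung the Targretin arrays do, while untreated lung 2 lies at 3280.3 among the 4HPR lungs.

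In untreated rats, Cyp26b1 was lower in liver than in lung. The untreated liver signals were 27.5, 130.4, 51.5 and 102.8 in arrays 1 to 4, and the untreated lung signals were 3280.3, 406.1 and 329.0 in arrays 2 to 4. Every untreated lung lay above every untreated liver. The log2 difference, liver minus lung, was -2.90 ± 0.64 (SE of limma, n = 4 and 3, limma adjusted p = 1.80e-04), in a comparison where 53.8% of probe sets passed and the median of all was -0.37. Quantile normalization moved that median by 0.28 and gave -2.80 for Cyp26b1. Without untreated lung 2 and both mammary gland arrays named above, the difference was -1.89 (limma adjusted p = 0.00208). Untreated lung exceeded untreated mammary gland by 1.85 (limma adjusted p = 0.0181; 41.9% of probe sets passed), and by 2.26 without the 3 arrays (0.00271). That call was lost without untreated lung 2 alone, at 0.84 (limma adjusted p = 0.331), and without untreated mammary gland 2, at 1.45 (0.0845), or 3, at 1.31 (0.110). The difference of liver from mammary gland was -1.05 and did not pass (limma adjusted p = 0.128; 57.8% of probe sets passed). It passed without untreated mammary gland 2, at -1.46 (limma adjusted p = 0.0464), or 3, at -1.59 (0.0243), and was 0.36 without the 3 arrays, which did not pass (0.581).

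In liver, Cyp26b1 rose after Targretin and after 4HPR. Targretin livers had signals of 499.4, 775.5 and 339.7, a mean of 538.2 ± 220 (SD, n = 3), against 78.05 ± 47.0 (SD, n = 4) in untreated livers. All 3 lay above every untreated liver. The rise was 2.33 ± 0.45 (SE) on the log2 scale with a 95% interval of 1.39 to 3.28 and a limma adjusted p of 0.00215, where 11.2% of the 6071 probe sets tested passed.

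The 4HPR livers had 810.6, 469.9, 559.3 and 502.1, a mean of 585 ± 155 (SD, n = 4). All 4 lay above every untreated liver. The rise was 2.49 ± 0.41 (SE), with a 95% interval of 1.61 to 3.36 and a limma adjusted p of 0.00436, where 2.78% of probe sets passed. It had the 20th smallest p of the 6071 probe sets. With a pseudocount 4 times larger, the rises were 1.55 with Targretin and 1.68 with 4HPR, since the untreated signals are near the pseudocount, and both passed.

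After 9cRA the livers split. Their signals were 233.9, 79.2, 385.6 and 86.7, a mean of 196 ± 145 (SD, n = 4), so livers 1 and 3 lay above every untreated liver while livers 2 and 4 lay within the untreated range. The difference was 0.90 ± 0.41 (SE), with a 95% interval of 0.02 to 1.77, and did not pass (limma adjusted p = 0.242; 5.16% of probe sets passed).

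The untreated livers lay at the 8.65th to 25.4th percentile of their arrays, and none was above the filter on low values. In liver the probe set therefore entered the test through its treated arrays: 3 of 3 Targretin, 4 of 4 4HPR and 1 of 4 9cRA livers were above the filter. Without any filter the limma adjusted p was 0.00294 for Targretin and 0.0053 for 4HPR. With an exact two-sided permutation test over the arrays, p was 0.0571 for Targretin and 0.0286 for 4HPR, which are the smallest those group sizes allow, and 0.2 for 9cRA. None of the 9 comparisons of an agent with diet passed after adjustment of these exact permutation p-values over the 9, with 0.257 as the lowest. None could have passed whatever the signals, because these group sizes keep even the smallest possible p-values above the threshold after that adjustment. The adjusted values therefore decide nothing about any agent.

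Summed markers of other cell types differed between liver groups too. The summed signal of 9 stellate cell and fibroblast markers was 28440 to 33080 in Targretin livers, 14904 to 18110 in untreated livers, 15763 to 32491 in 9cRA livers and 11787 to 20876 in 4HPR livers. Those sums lay wholly above the untreated range with Targretin and overlapped it with 9cRA and with 4HPR. The 6 measured macrophage and antigen presenting cell markers summed to 7898 to 9336 in untreated livers, and to 4616 to 7302 with Targretin and 5719 to 7885 with 4HPR, both wholly below the untreated range; with 9cRA they summed to 5795 to 9758. The 6 measured adipocyte markers summed to 5585 to 7422 in untreated livers, to 8244 to 9171 with Targretin, to 6425 to 8346 with 9cRA and to 6826 to 7714 with 4HPR. The 4 measured endothelial markers summed to 1657 to 2885 across all livers. Lung epithelium markers summed to 1503 to 3156 in untreated livers, to 1163 to 1973 in 4HPR livers, to 1548 to 5492 in Targretin livers and to 2306 to 10915 in 9cRA livers. The part of any of these markers in the liver values was not tested.

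In lung, Cyp26b1 was higher after Targretin, and the size of the difference rested on untreated lung 2. The Targretin lungs had 7297.9, 5781.6 and 6239.1, a mean of 6439.5 ± 778 (SD, n = 3), and the untreated lungs had a mean of 1338 ± 1682 (SD, n = 3). All 3 Targretin lungs lay above every untreated lung, at the 92.5th to 94.4th percentile of their arrays. The rise was 2.98 ± 0.62 (SE), with a 95% interval of 1.66 to 4.31 and a limma adjusted p of 0.0309, where 2.39% of the 5932 probe sets passed. It ranked 4th among the rises of that comparison. Without untreated lung 2 the rise was 4.00 ± 0.38 (SE; limma adjusted p = 2.68e-04; 5.08% of probe sets passed). The call was lost without Targretin lung 1, at 2.89 (limma adjusted p = 0.0704), untreated lung 3, at 2.55 (0.162), or untreated lung 4, at 2.41 (0.131), and with only the 2 groups in the fit (0.186). The exact permutation p was 0.1, the smallest that 3 arrays against 3 allow.

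The 4HPR lungs had 6683.4, 3075.2, 3990.7 and 6653.9, a mean of 5101 ± 1849 (SD, n = 4). Of these, 3 lay above every untreated lung, and lung 2 lay below untreated lung 2. The difference of 2.58 ± 0.58 (SE), with a 95% interval of 1.34 to 3.82, did not pass (limma adjusted p = 0.552), although it had the 2nd smallest p of the comparison. No probe set passed in it with limma (0% of 5932; 273 had an unadjusted p under 0.05). Without untreated lung 2 the difference was 3.59 ± 0.36 (SE) and passed (limma adjusted p = 7.47e-05), with 1.36% of probe sets passing. It also passed with all 43 arrays in the fit (limma adjusted p = 0.0273) and with array weights, at 3.40 (9.42e-04). The exact permutation p was 0.114.

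No rise with 9cRA was found in lung. The 9cRA lungs had 907.2, 560.7, 805.0 and 364.2, a mean of 659 ± 245 (SD, n = 4), and none lay above untreated lung 2. The difference of -0.30 had a 95% interval of -1.54 to 0.94 (limma adjusted p = 0.868; 0% passed, and 656 probe sets had an unadjusted p under 0.05). Without untreated lung 2 it turned to 0.71 and did not pass (limma adjusted p = 0.345; 0.646% passed).

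The signal of hepatocyte genes varied among lung arrays. The summed hepatocyte markers were 9141 to 11076 in Targretin lungs, whose Cyp26b1 signals were the highest, and 7213 and 8384 in untreated lungs 3 and 4. In the 4HPR lungs they were 22996 to 117152, in the 9cRA lungs 13045 to 18970, and in untreated lung 2 37475. Alb was 40.1 to 355.4 in the Targretin lungs and 6949 to 35889 in the 4HPR lungs. Cyp26b1 signals were 469.9 to 810.6 in the 4HPR livers and 3075.2 to 6683.4 in the 4HPR lungs. The 4 endothelial markers summed to 5836 to 17267 in lung, highest in untreated lung 2. The part of these signals in the 4HPR difference was not tested.

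**Figure D2:**
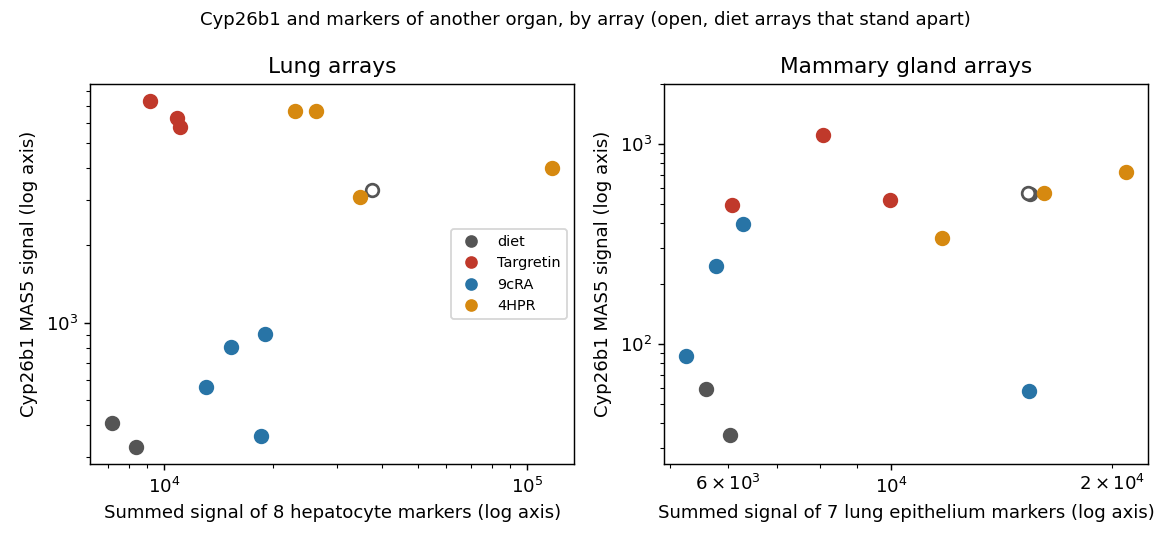
Cyp26b1 signal (MAS5 units) against the summed signal of 8 hepatocyte markers on lung arrays and of 7 lung epithelium markers on mammary gland arrays, both on log axes, with points for arrays and open points for the 3 untreated arrays that stand apart. Targretin lungs combine the highest Cyp26b1 with 9141 to 11076 of hepatocyte signal, and the open points lie beside 4HPR arrays.

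In mammary gland, no agent's difference from diet in Cyp26b1 passed in the organ's fit of 4 groups. The untreated glands split into 561.5 and 568.7 in arrays 1 and 4 and 59.4 and 34.9 in arrays 2 and 3, a mean of 306 ± 299 (SD, n = 4). Targretin glands had 494.8, 1108.5 and 521.4, a mean of 708 ± 347 (SD, n = 3), and 1 of the 3 lay above every untreated gland. The difference was 1.63 ± 0.73 (SE), with a 95% interval of 0.08 to 3.18 and a limma adjusted p of 0.146, where 13.2% of the 6051 probe sets passed. It passed with array weights, at 2.12 (limma adjusted p = 0.0402).

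The 4HPR glands, arrays 2 to 4, had 727.0, 337.6 and 568.2, a mean of 544 ± 196 (SD, n = 3), and overlapped untreated glands 1 and 4. The difference was 1.31, with a 95% interval of -0.25 to 2.86 (limma adjusted p = 0.999; 0% passed, and 181 probe sets had an unadjusted p under 0.05). The 9cRA glands had 58.4, 243.9, 395.8 and 86.8, a mean of 196 ± 156 (SD, n = 4), and all lay within the untreated range. Their difference was -0.20, with a 95% interval of -1.64 to 1.23 (limma adjusted p = 0.908; 0% passed, and 1129 had an unadjusted p under 0.05). The exact permutation p was 0.343 for Targretin, 0.743 for 9cRA and 0.343 for 4HPR.

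Without untreated glands 1 and 4 the differences were larger. Targretin then passed, at 3.05 ± 0.61 (SE; limma adjusted p = 0.00477; 21.4% of probe sets passed). 4HPR gave 2.72 ± 0.61 and did not pass (limma adjusted p = 0.0874; 0.487% passed), and 9cRA turned to 1.21 and did not pass (0.203; 10% passed). Lung epithelium markers summed to 11735 to 20901 in 4HPR glands and to 6072 to 9955 in Targretin glands. In 9cRA gland 1 they reached 15415 with a Cyp26b1 signal of 58.4. Untreated glands 1 and 4 had 15487 and 15387 with Cyp26b1 signals of 561.5 and 568.7. The part of these markers in the mammary gland values was not tested.

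**Figure D3:**
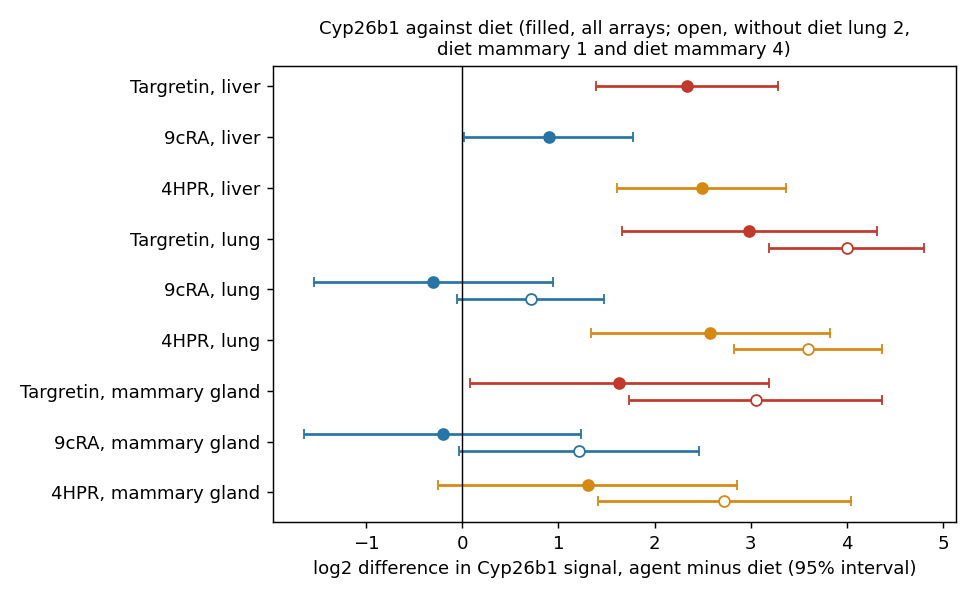
Difference of each agent from diet in the log2 Cyp26b1 level, with 95% intervals of the limma fit, with all arrays (filled) and without the 3 untreated arrays that stand apart (open). The intervals of Targretin and 4HPR in liver lie between 1.39 and 3.36, and the lung and mammary gland values move upward when those arrays are left out.

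The 3 agents are related retinoids in function but were given at different doses and by different routes, so their levels are set side by side as groups of this design, not as a ranking of compounds at matched dose. The 3 comparisons with diet in an organ share its untreated arrays. Of the 9 pairs of agents within an organ, none passed for Cyp26b1 in the organ's fit of 4 groups, and the settings in which a pair passed are named with it. In liver, Targretin minus 9cRA was 1.44 (limma adjusted p = 0.0750; 5.73% of probe sets passed) and passed without 9cRA liver 3 (0.0208) and with a pseudocount 4 times larger, at 1.03 (0.0491). In the same organ, 9cRA minus 4HPR was -1.59 (limma adjusted p = 0.157; 0.165% passed), and Targretin minus 4HPR was -0.15 (0.877; 7.89% passed). In lung, all 3 Targretin lungs and all 4 4HPR lungs lay above all 4 9cRA lungs. Targretin minus 9cRA was 3.28, with a 95% interval of 2.04 to 4.52 (limma adjusted p = 0.0975; 0.0169% passed), and 9cRA minus 4HPR was -2.88, with an interval of -4.03 to -1.73 (0.127; 0% passed).

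Those lung differences between agents rest on no untreated array, yet their tests share the spread of all lung arrays. With untreated lung 2 out of the fit, the same 3.28 and -2.88 passed (limma adjusted p = 2.46e-04 and 6.56e-04), and Cyp26b1 then had the smallest p of all probe sets in both. Leaving out that array lowers the spread by construction: the SE was 0.31 and 0.29, against 0.58 and 0.54 with all arrays. Those passes and ranks are thus not independent support. Both differences also passed with only the 2 groups compared and with all 43 arrays in the fit. Targretin minus 9cRA passed after quantile normalization too, at 3.81 (limma adjusted p = 0.0376), and 9cRA minus 4HPR with array weights, at -2.90 (0.0229). Targretin minus 4HPR in lung was 0.40, with an interval of -0.84 to 1.64 (limma adjusted p = 0.702; 1.45% passed), which does not show that the pair acted alike; without untreated lung 2 the interval was -0.27 to 1.08. In mammary gland, Targretin minus 9cRA was 1.83 (limma adjusted p = 0.367; 2.05% passed), 9cRA minus 4HPR was -1.51 (0.520; 0.0496% passed) and Targretin minus 4HPR was 0.32 (0.837; 4.23% passed). With untreated glands 1 and 4 out of the fit, their limma adjusted p-values were 0.112, 0.379 and 0.746.

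Whether an agent's difference from diet itself differed between organs was tested in a fit of all 43 arrays. None of the 9 such contrasts passed for Cyp26b1. The Targretin difference in liver minus that in lung was -0.65 (limma adjusted p = 0.835; 1.66% of probe sets passed), and that in liver minus that in mammary gland was 0.70 (0.708; 10.2% passed). In lung minus in mammary gland it was 1.35 (0.481; 5.09% passed). The 4HPR difference in liver minus that in lung was -0.09 (limma adjusted p = 0.990; 0% passed), in liver minus in mammary gland 1.18 (0.911; 0.0145% passed) and in lung minus in mammary gland 1.27 (0.999; 0% passed). The 9cRA difference in liver minus that in lung was 1.20 (limma adjusted p = 0.917; 0.0289% passed), in liver minus in mammary gland 1.10 (0.633; 0.81% passed) and in lung minus in mammary gland -0.10 (0.998; 0% passed). Calls in liver and not in mammary gland are thus not shown to differ between the organs.

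Beside Cyp26b1, 10 other genes of retinoic acid clearance were listed, and 7 of them were measured. In liver, 6 genes of that list were tested, Cyp26b1 included. With Targretin 3 rose, Cyp26b1 among them, and none fell, against 11.2% of all probe sets passing in either direction. The list median was 1.13 against -0.02 for all probe sets. Cyp26b1 was chosen with earlier results known and entered the liver test through its treated arrays. The liver counts and medians of this list are therefore not independent of that choice. Cyp2c22, a liver cytochrome P450 that also hydroxylates retinoic acid, rose from 11737 ± 1261 to 65527 ± 6919 (SD, n = 4 and 3), by 2.48 (limma adjusted p = 1.17e-09). Cyp2b2, a drug-inducible P450, rose by 3.93 (limma adjusted p = 2.66e-04). With 4HPR 3 rose and none fell, against 2.78% of all probe sets: Cyp26b1, Cyp2c22 by 2.19 (limma adjusted p = 2.44e-09) and Cyp3a9, a P450 of the steroid and drug metabolising family, by 1.10 (0.00352).

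With 9cRA, Cyp2c22 rose in liver by 2.26 (limma adjusted p = 1.51e-09), although Cyp26b1 did not pass. Cyp3a9 rose by 0.89 (limma adjusted p = 0.00513) and Ugt2b1, a glucuronosyltransferase, fell by 0.84 (0.0104), which made 2 rises and 1 fall of 6, against 5.16% of all probe sets. The list medians in liver were 0.47 with 9cRA and 0.57 with 4HPR, against -0.01 and -0.10 for all probe sets.

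**Figure D4:**
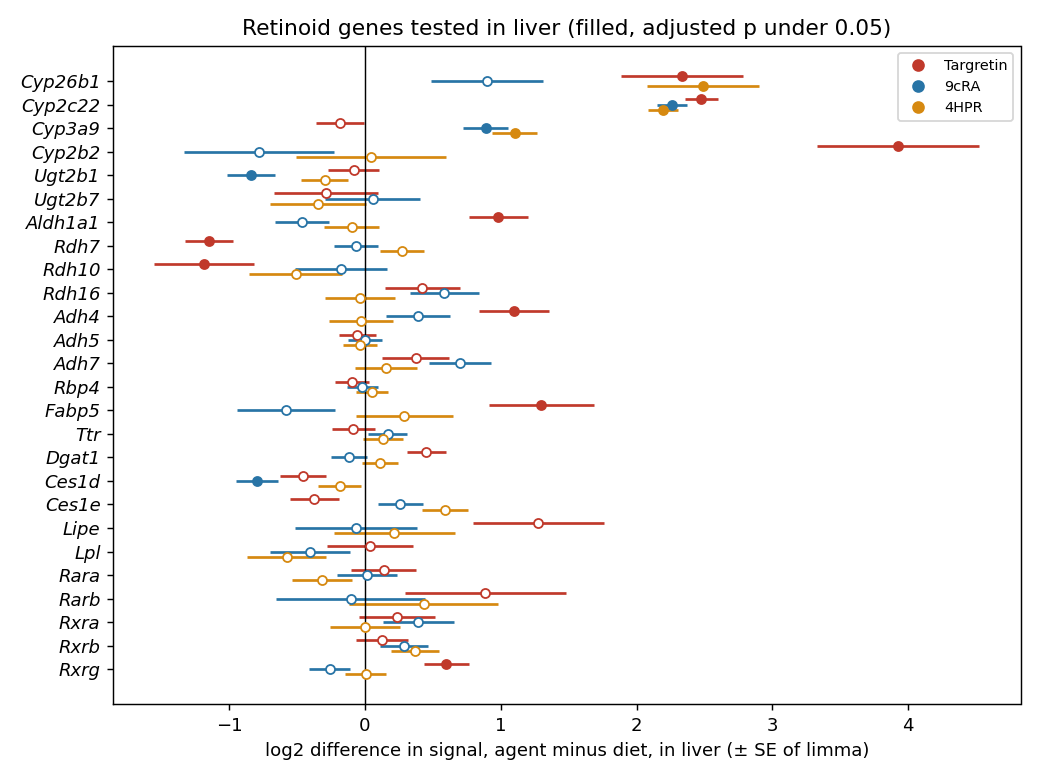
Log2 difference from diet in liver (± SE of limma) for the tested genes of the retinoid clearance, synthesis, binding and receptor lists, with 1 point per agent and filled points for an adjusted p under 0.05. Cyp26b1 is filled for Targretin and 4HPR, and Cyp2c22 is filled for all 3 agents at 2.19 to 2.48.

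Genes of retinoic acid synthesis passed in liver with Targretin and not with the other agents, a difference between agents that was not tested. Of 7 tested synthesis genes in liver, 2 rose and 2 fell with Targretin, against 11.2% of all probe sets passing in either direction. Aldh1a1, which makes retinoic acid from retinal, rose by 0.98, and Adh4, an alcohol dehydrogenase, rose by 1.10. The retinol dehydrogenase Rdh7 fell by 1.15, and the retinol dehydrogenase Rdh10 fell by 1.18 (limma adjusted p = 0.0468). None of the 7 passed with 9cRA or 4HPR, where 5.16% and 2.78% of all probe sets passed. Counts of 0 of 7 cannot be told from those shares. Of 8 tested binding, transport and storage genes, Fabp5, a carrier of fatty acids and retinoic acid, rose with Targretin by 1.30, and Ces1d, a carboxylesterase, fell with 9cRA by 0.79. Of 5 tested receptors, Rxrg alone rose with Targretin, by 0.60, and none passed with the other agents. Of 6 tested receptor partners, Nr1h4, the bile acid receptor, fell with Targretin by 1.09. All of these passed with limma at an adjusted p under 0.05. With 11.2% of all probe sets passing with Targretin, the 1 of 8, 1 of 5 and 1 of 6 of the binding, receptor and partner lists do not set those lists apart. Nor does the 1 of 8 of the binding list with 9cRA, against 5.16% of all probe sets.

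Known targets of retinoic acid receptors were tested in liver for 7 genes. None passed with Targretin, and Rarb, the receptor gene that retinoic acid itself induces in many cells, gave 0.89 (limma adjusted p = 0.402). Foxa1, a liver transcription factor, rose with 9cRA by 1.15, and Egr1, an immediate early gene, rose with 4HPR by 1.16 (limma adjusted p = 0.0497). Counts of 0, 1 and 1 of 7 cannot be told from the 11.2%, 5.16% and 2.78% of all probe sets that passed with Targretin, 9cRA and 4HPR. In lung, Cyp26b1 was the only 1 of 5 tested clearance genes to pass with Targretin. Rara, 1 of 4 tested receptors, rose by 0.84 (limma adjusted p = 0.0452), which did not pass without untreated lung 2 (0.0604). Of all probe sets, 2.39% passed in that comparison, and counts of 1 of 5 and 1 of 4 cannot be told from that share. With 9cRA and with 4HPR no gene of the retinoid lists passed in the organ's fit of 4 groups, of 33 tested in lung and 37 in mammary gland, where no probe set passed at all; the settings in which the 4HPR difference of Cyp26b1 in lung passed are given above. Without untreated lung 2, those passing in lung were Cyp26b1, Cyp2c22 and Ttr, the carrier transthyretin, with 4HPR and Ttr with 9cRA. In that fit 1.36% of all probe sets passed with 4HPR and 0.646% with 9cRA. The summed hepatocyte markers, Ttr among them, were higher in the 4HPR and 9cRA lungs than in untreated lungs 3 and 4, as given above, and their part in these calls was not tested. Without untreated glands 1 and 4, those passing in mammary gland were Cyp2c22 and Nr1h2 with 9cRA and none with 4HPR. Of all probe sets, 10% passed there with 9cRA and 0.487% with 4HPR, so those counts do not set the lists apart.

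Other clearance genes fell in mammary gland with Targretin, where Cyp26b1 did not pass. Of 5 tested, 3 fell, Cyp2c22, Cyp2b2 and Ugt2b1, and none rose, against 13.2% of all probe sets passing in either direction. Cyp2b2 fell by 1.89 (limma adjusted p = 0.00367) and Ugt2b1 fell by 2.10 (0.00307), and both also passed without untreated glands 1 and 4. Cyp2c22 was 5222, 816.7, 446.9 and 3213.2 in untreated glands 1 to 4 and 247.8, 90.8 and 275.9 in Targretin glands, and fell by 2.85 (limma adjusted p = 0.0178). Without untreated glands 1 and 4 the difference was -1.51 and did not pass (limma adjusted p = 0.0776). Hepatocyte markers summed to 60103 to 105184 in untreated glands and to 3800 to 28291 in Targretin glands, and their part in these falls was not tested. Crabp2, a carrier of retinoic acid and a known target of its receptors, rose with Targretin from 874 ± 298 to 3393 ± 2509 (SD, n = 4 and 3), by 1.73 (limma adjusted p = 0.0240), and by 2.03 without untreated glands 1 and 4 (0.0218). Of the 9 tested genes of its binding list, 2 fell: Ttr, which fell by 7.02 (limma adjusted p = 1.28e-07) from 13611 ± 1833 to 83.9 ± 86.3 (SD), and Rbp4, the plasma retinol carrier, which fell by 0.83 (0.0165) and did not pass without untreated glands 1 and 4 (0.0517). Nr1h2, a liver X receptor, rose by 1.10 (limma adjusted p = 0.0176) and also passed without untreated glands 1 and 4. Crabp1 and Dgat1, also of the binding list, passed in that fit and not in the organ's fit with all arrays. Of all probe sets, 21.4% passed without those untreated glands. The calls of Rbp4 and Nr1h2 were lost without Targretin gland 2 (limma adjusted p = 0.0603 and 0.0570) or 3 (0.0738 and 0.0502), and that of Nr1h2 also without untreated gland 2 (0.0560) or 3 (0.0549). Ttr is also 1 of the hepatocyte markers.

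Genes whose pattern was most like that of Cyp26b1 were ranked by Pearson's r of log2 levels over the 12 group means, among 4960 probe sets. Irf7, an interferon regulatory factor, led with 0.92 and 0.91 in its pair of probe sets, followed by Tgfbr3, betaglycan, and Ptpn1, a tyrosine phosphatase, both at 0.90, and Mx1, an interferon-induced GTPase, at 0.89. After quantile normalization Tgfbr3 fell to 0.65. The lowest were Fn1, fibronectin, at -0.87, St13 at -0.86 and Cpq at -0.86. Without the 3 untreated arrays, r for the 5 most like probe sets was between 0.84 and 0.91. These points share the organ and the agent groups.

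Over the 15 liver arrays the order was different. Mettl7b led at 0.86, then Fdft1, squalene synthase, at 0.82, Sparc, a matrix protein, at 0.81, and Gcgr, the glucagon receptor, and Smarcb1 both at 0.78. Sparc is also among the stellate cell and fibroblast markers, though another of its probe sets was summed there. The lowest were RT1-Ba and Cd74, genes of class II antigen presentation, at -0.88 and -0.85, and Srpx at -0.83. Liver arrays share their treatment groups, so these values describe the pattern and carry no test.

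**Figure D5:**
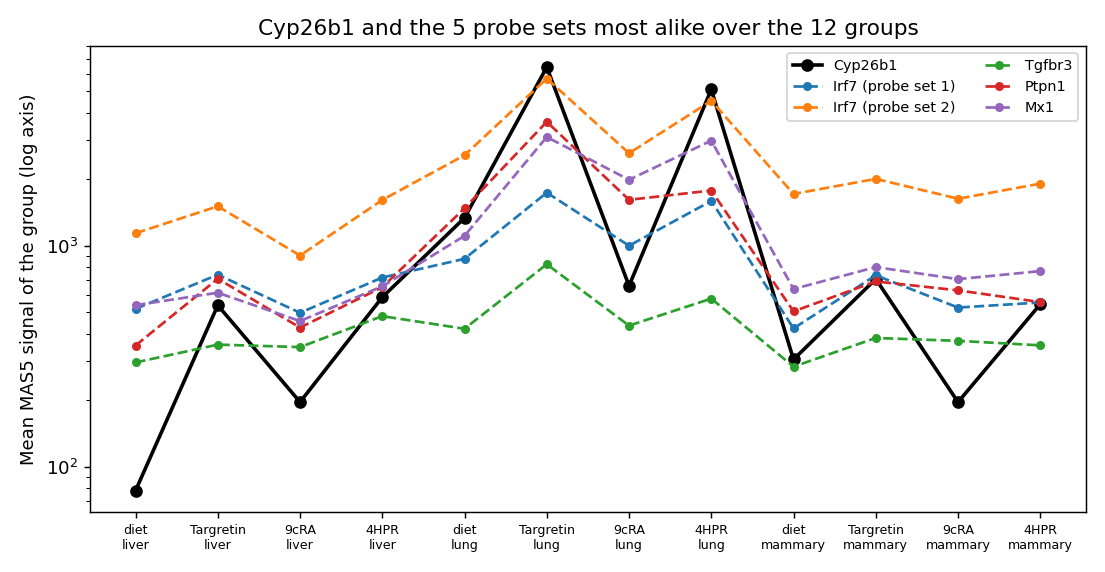
Mean signal (MAS5 units) in each group of organ and agent, for Cyp26b1 and the probe sets most like it over the 12 group means. Among these probe sets, Irf7 has the highest Pearson's r with Cyp26b1, at 0.92.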

How the data were processed

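The deposited values are intensity on a linear scale, which the authors computed with MAS5 for every probe set, per the submitters' processing notes; the MAS5 version is not given in the sources used here. The trimmed mean was 1501.78 to 1503.29 on every array, so no further scaling was applied. Of 8799 probe sets, 59 controls were left out, and 7006 of the rest had 1 gene symbol. Where a listed gene had several probe sets, the one with the highest mean signal was used. Signals were converted to log2(signal + 38.3), where 38.3 is the 10th percentile of all values; this understates changes of low genes. Testing in an organ required that a probe set exceeded the 40th percentile of at least 3 arrays. Each organ's 4 groups were fitted with limma 3.58.1 in R 4.3.3 (lmFit, eBayes with trend). A fit of all 43 arrays gave differences between organs, over 6913 probe sets. Benjamini-Hochberg adjustment ran over all probe sets tested, and 0.05 was the threshold. The script was tested on simulated data. Exact two-sided permutation tests used log2 levels. The number of arrays limits the precision. Cyp26b1 was looked at in 30 comparisons. The gene, the lists and the rules for naming genes were chosen with earlier results of these data known: those named are list members that passed against diet, a few fixed genes such as Rarb whether or not they passed, and the 5 most like and 3 least like probe sets with 1 symbol, among those tested in liver. Alternatives were quantile normalization, a pseudocount 4 times larger, no filter, array weights, a block for the replicate number, only the 2 groups compared, all 43 arrays, and each array left out; leaving out 3 untreated arrays together was added after the data were seen.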

Additional observations from a re-analysis of the deposited data

How the results depend on the processing

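The liver rises of Cyp26b1 with Targretin and 4HPR passed in all 15 fits that left out 1 liver array (2.05 to 2.60 and 2.25 to 2.70) and in the 7 other settings run (1.55 to 2.55 and 1.68 to 2.86, lowest with a pseudocount 4 times larger). Values below are log2 differences with limma adjusted p. A pseudocount 4 times larger gave 1.03 (0.0491) for Targretin minus 9cRA in liver. Quantile normalization gave 3.81 (0.0376) for that pair in lung, and 0.16 for the 4HPR difference from diet in liver minus that in lung. Array weights gave, in lung, 0.49 for 9cRA and 3.40 (9.42e-04) for 4HPR against diet and -2.90 (0.0229) for 9cRA minus 4HPR. In mammary gland they gave 2.12 (0.0402) for Targretin and 0.0328 for 9cRA against diet. They gave 0.42 for the 9cRA difference from diet in lung minus that in mammary gland. With only the 2 groups compared, lung gave 2.98 (0.186) for Targretin against diet, 3.28 (8.08e-04) for Targretin minus 9cRA and -2.88 (0.0117) for 9cRA minus 4HPR. With all 43 arrays these pairs gave 3.28 (0.00416) and -2.88 (0.0120), and 4HPR against diet 2.58 (0.0273).

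Without the 3 untreated arrays, lung gave 0.71 for 9cRA and 3.59 for 4HPR against diet, 3.28 for Targretin minus 9cRA and -2.88 for 9cRA minus 4HPR. Mammary gland gave 3.05 for Targretin and 1.21 for 9cRA against diet, and untreated liver minus untreated mammary gland was 0.36. The difference from diet in liver minus that in mammary gland was -0.71 with Targretin, -0.32 with 9cRA and -0.24 with 4HPR. The cause of these changes was not tested.

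Leaving out 1 array at a time gave, in lung, 2.41 to 4.00 for Targretin, -0.88 to 0.71 for 9cRA and 2.0 to 3.59 for 4HPR against diet, 3.04 to 3.45 for Targretin minus 9cRA and -3.10 to -2.64 for 9cRA minus 4HPR. Liver gave 1.15 to 1.79 for Targretin minus 9cRA and -0.44 to 0.115 for Targretin minus 4HPR. Mammary gland gave -0.75 to 0.27 for 9cRA against diet and -0.0328 to 0.55 for Targretin minus 4HPR. Untreated liver minus mammary gland was -1.59 to -0.58 and lung minus mammary gland 0.84 to 2.43. The 4HPR difference from diet in liver minus that in lung was -1.10 to 0.48. For 9cRA, the difference from diet in lung minus that in mammary gland was -0.67 to 0.92.

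Within an organ, arrays of the same replicate number were not alike as a rule. Over 57 pairs of the same number and organ the median correlation of deviations was 0.01, and 9 pairs were over 0.1. Over 41 pairs of the same number and agent in different organs the median was 0.06, and 15 were over 0.1; with 9cRA and Targretin alone the medians were 0.102 and 0.104, and every pair was above 0. The labels do not say whether such arrays are from the same rat, and the contrasts between organs treat arrays as independent. With the number as a replicate block, Targretin against diet in lung gave 2.66 (limma adjusted p = 0.0950), and no other Cyp26b1 call changed.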
